A study of Mus musculus with 2 samples.

Results

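The peaks described here are the c-Fos ChIP-seq peaks that lay in the most crowded windows of the mouse autosomes. Chromosomes 1 to 19 were divided into fixed windows of 1 Mb, each peak was placed by its centre, and every peak in a window with 20 or more peaks was kept. This gave 533 peaks in 24 windows, out of 10785 autosomal peaks (4.94%) and 10870 peaks in the whole list. The members were thus chosen by the number of peaks per window, so that number is given below as a description only, and the same holds for the distances between peaks, which follow from it. Peak width and the authors' score were not used in the choice.

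The peaks came from 1 ChIP library of mesenchymal stem cells from mouse bone marrow, grown for fewer than 20 passages. The cells carried a p53 knockout (p53KO), that is, loss of the tumour suppressor p53, and expressed cFos; how cFos was introduced and from which promoter is not stated in the labels. For the ChIP, 50000000 fixed cells and 10 ug of an anti-cFos antibody (Santa Cruz, sc-253) were used, and 1 input library without antibody came from cells of the same genotype. No cells without added cFos and no second library are named, so nothing below has a replicate error, and every comparison is between windows of 1 peak list.

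c-Fos is a transcription factor that binds DNA as a partner of a Jun protein. The pair forms AP-1, which is induced by growth factors, stress and inflammatory signals and acts at enhancers and promoters of genes for the cytoskeleton, the matrix and cell growth. In bone, c-Fos is needed to form osteoclasts, and its excess in mice gives bone tumours. Genes and regulatory elements are spread unevenly along chromosomes, and the binding sites of such factors with them.

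A few genes are named below as landmarks, from general knowledge of the mouse map, to say which part of a chromosome a window covers. No peak was joined to a gene, since the gene table at hand is on build GRCm38.p6 and the peaks are on mm9. All 15 landmark symbols are listed in that table on the chromosome given here. No genome sequence of mm9 was used, so no peak sequence is shown.

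The 24 windows were 0.997% of the 2407 windows between the first and the last peak of each autosome. An autosomal window held 4.48 peaks on average, and 612 windows held none. The dense windows lay on 14 chromosomes. Chromosome 6 had 4 of them, chromosome 2 had 3, and chromosomes 4, 8, 11, 15 and 19 had 2 each. As a share of a chromosome's own peaks, the members made up 13.4% on chromosome 19 (51 of 381) and 10.5% on chromosome 6 (86 of 817), against 3.11% on chromosome 3 (22 of 707). Chromosomes 7, 9, 12, 16 and 18 had no dense window, although each had between 282 and 523 peaks. Just inside the threshold were 6 windows with 20 peaks and 7 with 21, and just outside it were 5 windows with 19 and 9 with 18.

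**Figure D1:**
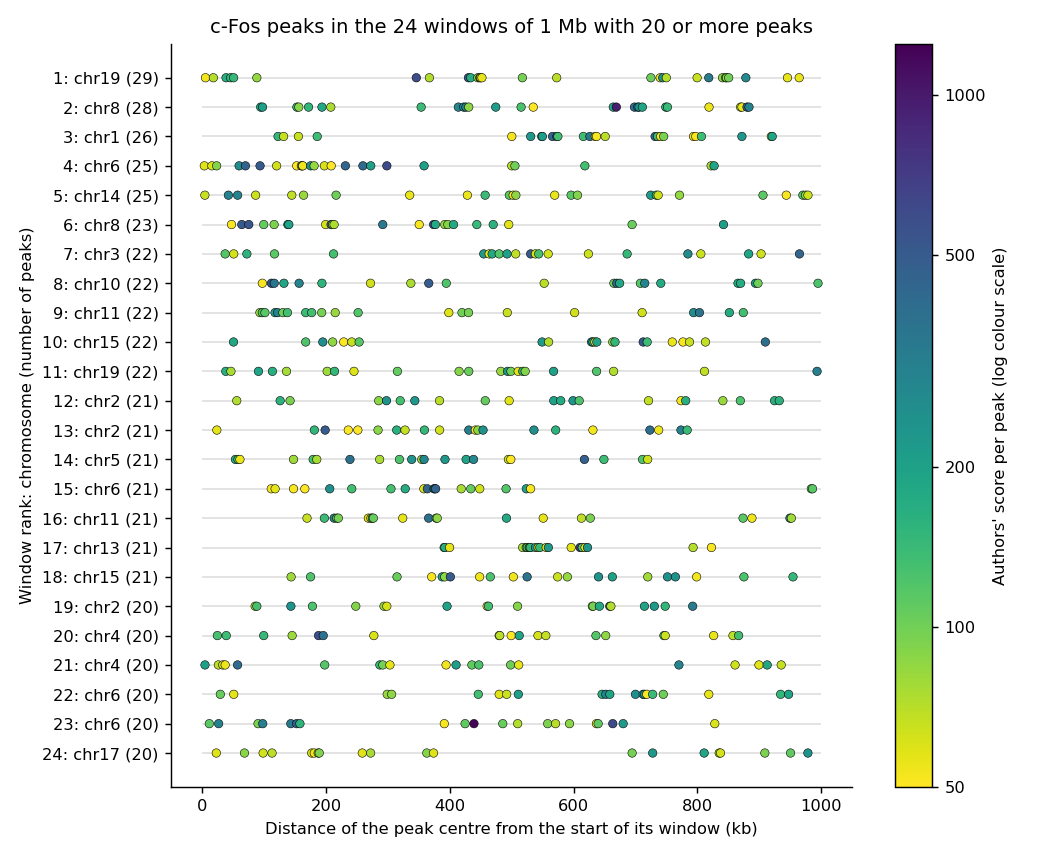
Each row is 1 of the 24 dense windows, ordered by its number of peaks (in brackets). Points are peak centres at their distance in kb from the start of the window, coloured by the authors' score on a log colour scale; the peaks of the window on chromosome 13 (rank 17) bunch in its middle, while those of rank 12 on chromosome 2 are spread along the whole window.

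With 29 peaks, the fullest window ran from 5000001 to 6000000 on chromosome 19. This stretch covers Malat1 and Neat1, 2 neighbouring genes for abundant nuclear long noncoding RNAs. Its scores ran from 51.51 to 598.25 around a median of 90.4. The highest score belonged to the peak from 5345004 to 5346592, and the second, 539.26, to the peak from 5429371 to 5430662. The window thus held the most peaks but a median below that of all autosomal peaks (101.6), and 12 of its 29 peaks scored at least 100.

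The window before it on the same chromosome, from 4000001 to 5000000, was dense as well, with 22 peaks. Its scores were lower at the top, with a highest value of 318.72, and its median was 102. The 2 windows met without a break: the last peak of one and the first of the other were 12.0 kb apart.

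The second fullest window, on chromosome 8 from 124000001 to 125000000, held 28 peaks and had the highest median score of the 24, at 181. Of its peaks, 21 scored at least 100 and 11 at least 200, the most in any dense window on both counts. Scores ran from 50.39 to 958.71, the highest at 124668236 to 124669657. These peaks were also close together, with a median distance of 4.05 kb to the nearest other peak and 20 of 28 within 10 kb of one. One of the 5 widest members lay here as well, a peak of 2060 bp from 124709979 to 124712038 with a score of 187.13.

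A second dense window on chromosome 8, from 129000001 to 130000000, held 23 peaks with a median score of 142 and a highest of 600.73. Of its peaks, 3 scored at least 500, the most in any of the 24. The fullest window and the one on chromosome 6 from 91000001 to 92000000 had 2 each.

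On chromosome 1, the window from 92000001 to 93000000 held 26 peaks with a median score of 134, and 19 of them had a neighbour within 10 kb. Its 3 highest scores, 458.23, 457.22 and 441.56, were close in value, and the first belonged to the peak from 92572347 to 92573469. Of the 26 peaks, 7 lay in the 100 kb from 92500001 to 92600000, and a stretch of 314 kb of the window was free of peaks.

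The window on chromosome 6 from 17000001 to 18000000 held 25 peaks and stood alone. This stretch covers Cav1 and Cav2, which encode the coat proteins of caveolae, and Met, the receptor for hepatocyte growth factor. The windows on both sides held 0 peaks: the nearest peak outside lay 1271 kb before the first member and 2161 kb after the last. Scores were widely spread, with a lower quartile of 63.2, a median of 101 and an upper quartile of 246. The highest score was 597.68, at 17297488 to 17298861. Of the 25 peaks, 8 lay between 17100001 and 17200000.

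On chromosome 14, the window from 70000001 to 71000000 also held 25 peaks, but with scores at the low end. Its median was 84.7, its upper quartile 115 and its highest score 303.48, at 70041661 to 70042800. No pair of neighbouring peaks there had edges within 2 kb.

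The window on chromosome 10 from 76000001 to 77000000 covers Col6a1 and Col6a2, which encode 2 chains of collagen VI, and held 22 peaks. Its median score of 175 was the second highest of the 24, and 18 of its 22 peaks (81.8%) scored at least 100, the highest share of any dense window. Its top peak, from 76111036 to 76112418, scored 551.88. The window on chromosome 2 from 27000001 to 28000000 covers Col5a1, a gene for a chain of collagen V. It held 20 peaks with a median score of 127 and a highest of 424.76.

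Chromosome 2 had 2 further dense windows close by. The window from 30000001 to 31000000 held 21 peaks with scores from 52.83 to 242.17, the lowest top score of the 24. It was the only one of the 24 with a peak in each of its 10 parts of 100 kb, with at most 3 in any of them. The window from 32000001 to 33000000 covers Eng, which encodes endoglin, a co-receptor for TGF-beta found on mesenchymal stem cells. Its 21 peaks had a median score of 141 and a highest of 500.95, and just 3 of them had a neighbour within 10 kb.

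On chromosome 5, the window from 32000001 to 33000000 covers Fosl2, a gene of the Fos family whose protein, like c-Fos, pairs with Jun proteins. It held 21 peaks with a median score of 124. The highest score was 467.19, and 11 of the peaks had a neighbour within 10 kb. The peaks took up 666 kb of the window.

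On chromosome 15, the window from 77000001 to 78000000 covers Myh9, which encodes the heavy chain of a nonmuscle myosin. It held 22 peaks with a median score of 120 and a highest of 511.67, and both windows beside it were well filled, with 15 and 13 peaks. The other dense window on this chromosome, from 38000001 to 39000000, held 21 peaks with a median score of 122 but was flanked by 3 and 2. Its peaks lay farther from each other than in the other dense windows, with a median of 22.3 kb to the nearest peak.

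Chromosome 3 had 1 dense window, from 95000001 to 96000000, which covers Mcl1, a survival gene of the BCL2 family. It held 22 peaks with a median score of 124 and a highest of 503.68. One of its peaks, from 95963728 to 95965829, was 2102 bp wide with a score of 444.86 and lay 62.0 kb from its nearest neighbour.

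Chromosome 6 had 3 dense windows besides that of the caveolins. The window from 125000001 to 126000000 covers Tnfrsf1a, a receptor for tumour necrosis factor, and Cd9, a tetraspanin of the cell surface. It held 21 peaks, of which 7 lay between 125300001 and 125400000, and its longest stretch without a peak, 454 kb, was the longest inside any of the 24. The windows from 90000001 to 91000000 and from 91000001 to 92000000 were neighbours with 20 peaks each. The second of these held the member of highest score, 1217.03, from 91438074 to 91439770, which ranked 3 among all autosomal peaks. The first had no score above 295.38 but the widest median, 1094.5 bp, and 2 of the 5 widest members: one of 2848 bp from 90656952 to 90659799 and one of 2424 bp from 90946010 to 90948433.

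The window on chromosome 13 from 23000001 to 24000000 covers part of the large cluster of histone genes and was the most tightly packed, with a median of 3.52 kb to the nearest peak. Of its 21 peaks, 12 (57.1%) lay in a single stretch of 100 kb, from 23500001 to 23600000, and all 21 lay within 432 kb. It held the only run of 5 or more members, 9 peaks from 23517243 to 23545795, where a run means peaks whose neighbouring centres are within 10 kb. Its median width was the lowest of the 24, at 898 bp, but the widest member of all also lay here, a peak of 3336 bp from 23608698 to 23612033 with a score of 745.52. The second highest score in the window was 231.21. Histone genes are near copies of each other, and whether the reads behind these peaks could be placed at single positions was not tested.

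The 5 remaining windows held 20 to 22 peaks. On chromosome 11, the window from 117000001 to 118000000 (22 peaks) had a median score of 118 and 8 peaks within 100 kb, and that from 75000001 to 76000000 (21 peaks) a median score of 98.2. On chromosome 4, the window from 134000001 to 135000000 had the lowest median score of the 24, at 84.2, although its top peak scored 583.29. That from 137000001 to 138000000, which covers Alpl, the gene for the alkaline phosphatase of mineralising bone, had a median of 101. On chromosome 17, the window from 35000001 to 36000000 lies in the major histocompatibility complex. It had the lowest share of higher scores: 4 of its 20 peaks (20.0%) reached 100, and the best scored 245.42.

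Across the 24 windows the median score thus ranged from 84.2 to 181. It was above the median of all autosomal peaks in 16 windows and below it in 8. Each window held low and high scores together: every dense window had between 2 and 11 peaks of at least 200. The best peak of a window scored between 242.17 and 1217.03. Of all autosomal peaks, 18.7% scored at least 200, so some such peaks are likely in any set of this many peaks. Whether the counts per window differ from those of other sets of equal size was not tested. Peak number and median score went together weakly over these 24 windows (Spearman's rho 0.17, Pearson's r 0.16, given as a description over windows of the same library).

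**Figure D2:**
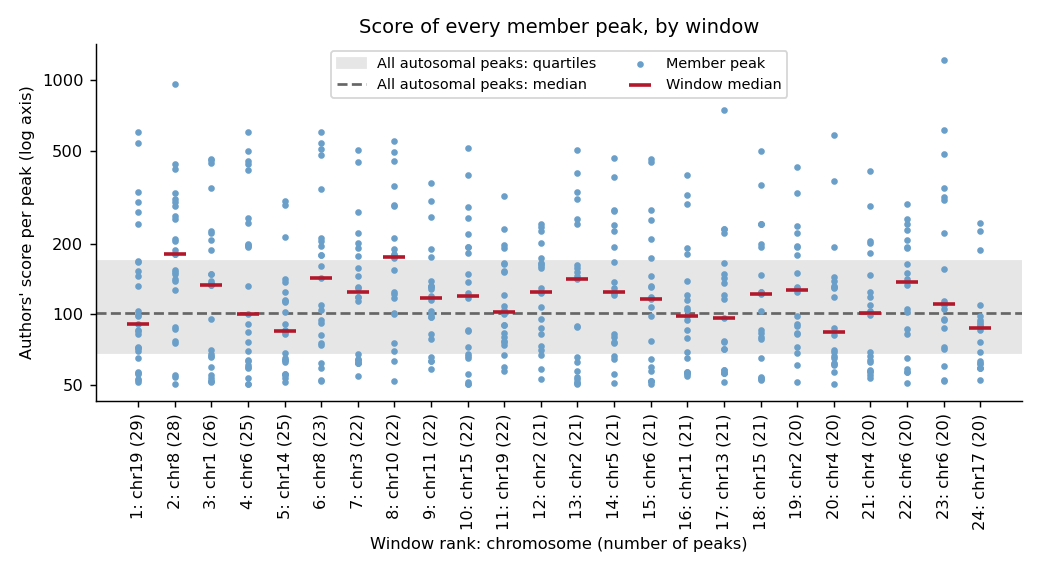
The authors' score of every member peak (points, log axis) in each of the 24 dense windows, with the window median as a red bar. The dashed line and grey band are the median (101.6) and quartiles of all autosomal peaks; 16 window medians lie above that median and 8 below it.

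Members had a somewhat higher median score than peaks elsewhere, with wide overlap; with 1 library no test was run. Their median score was 114.1 (95% order-statistic interval 101.7 to 124.0, 533 peaks), against 101.1 (99.5 to 103.0, 10252 peaks) in the other windows and 101.6 over all autosomal peaks. The intervals met, and they count peaks as independent, which peaks of 1 window are not. The lower quartiles were nearly equal, 67.6 for members and 68.6 elsewhere, while the upper quartiles were 193 and 167. The 2 sets thus differed in the upper part of the scores, while low scores were about as frequent: 16.1% of the members (86 of 533) scored under 60, against 15.5% of the other peaks.

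At a score of at least 100 stood 55.3% of the members (295 of 533, Wilson 95% interval 51.1 to 59.5) and 50.6% of the others. At 200 or more the shares were 22.7% (121 peaks, 19.3 to 26.4) and 18.5%. Peaks in windows of 15 to 19, which are among the others, had shares close to those of the members. These were 53.8% at 100 or more, 22.6% at 200 or more and 2.70% at 500 or more, with an upper quartile of 185. Higher scores were thus not particular to the dense windows. The top 10% of autosomal scores began at 276.89 and took in 13.1% of the members (70 peaks, 10.5 to 16.3) and 9.84% of the others. Among the highest scores the numbers were small: 15 members scored at least 500 (2.81%, 1.71 to 4.59, against 2.08%), and 3 of the 100 highest autosomal scores were members, which make up 4.94% of the peaks.

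Those 3 were the peaks already named on chromosomes 6, 8 and 13, with scores of 1217.03, 958.71 and 745.52 and ranks of 3, 14 and 51. The next members followed at ranks of 103 and beyond. They were a second peak of the chromosome 6 window that begins at 91000001, from 91662497 to 91663790 (613.23), and the best peaks of windows on chromosomes 8, 19, 6, 4 and 10. The last of the 10 highest members, at rank 176, was the second peak of the fullest window on chromosome 19.

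The difference in score leaned on the window on chromosome 8 from 124000001 to 125000000. Without it the median score of the members was 109.1, and with each of the 24 windows left out in turn it lay between 109.1 and 117.2. The difference from the other windows was 13.0 with all 24 and 8.03 without that window, and the interval of the median then reached down to 98.8, below the median elsewhere. The difference was 7.71 on a grid shifted by 500 kb and 7.58 with windows of 15 or more peaks.

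Over classes of windows by peak number, the median score rose from class to class. The rise was largest at 20, where the intervals overlapped, so a step there cannot be told from a gradual series. The median score was 91.9 for the 248 peaks that were alone in their window, 97.5 in windows of 2 to 4 peaks, 101.3 in windows of 5 to 9, 101.8 in windows of 10 to 14 and 106.1 in windows of 15 to 19. The interval of the last class (101.1 to 111.6) lay almost wholly within that of the members. Window medians above that of all autosomal peaks made up 66.7% of the dense windows (16 of 24), 57.5% of the windows with 15 to 19 peaks (42 of 73) and 51.4% of those with 10 to 14. Over the 960 windows with at least 5 peaks, Spearman's rho of peak number and median score was 0.076 and Pearson's r 0.027, given as a description over windows of 1 library; over this range, peak number and score were nearly unrelated.

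**Figure D3:**
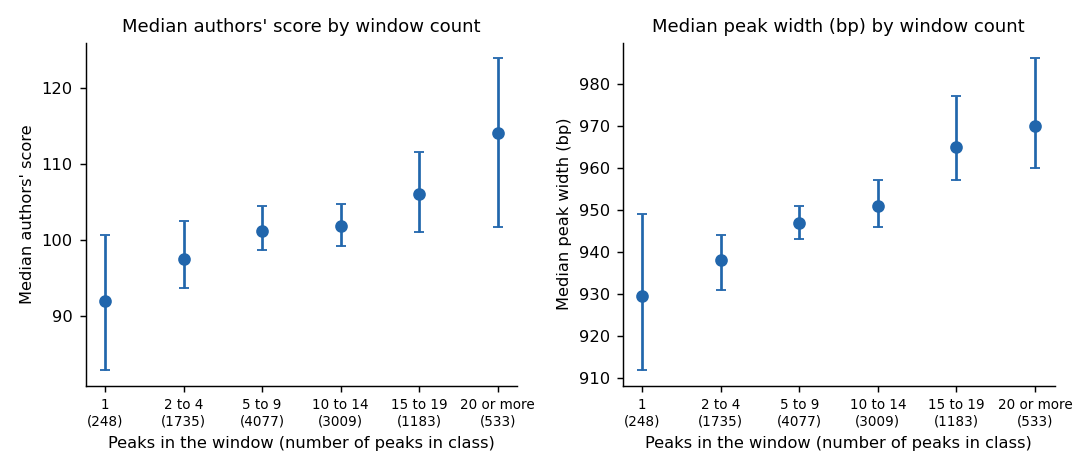
Median score (left) and median width in bp (right) of autosomal peaks, by how many peaks their 1 Mb window held; bars are 95% order-statistic intervals that treat peaks as independent, and the axes do not start at 0. The median score goes from 91.9 to 114.1 and the median width from 929.5 to 970 bp, with overlapping intervals between the classes of 15 to 19 and of 20 or more.

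Member peaks were slightly wider. Their median width was 970 bp (95% interval 960 to 986), against 948 bp (945 to 951) in the other windows, a difference of 22 bp. In windows of 15 to 19 peaks the median was 965 bp (957 to 977), which overlapped the interval of the members. Window medians ran from 898 to 1094.5 bp, and 16 of the 24 (66.7%) were above the autosomal median of 950 bp. The same held for 69.9% of the windows with 15 to 19 peaks (51 of 73) and 51.7% of those with 10 to 14. Of the members, 7.13% (38 of 533, Wilson interval 5.24 to 9.63) were among the widest 5% of autosomal peaks, those of 1307 bp or more, against 4.93% of the other peaks. Together the 533 members covered 541 kb, and the peaks of a window covered 18.7 to 31.0 kb of its 1 Mb.

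Score and width go together in this list, so members and other peaks were also compared within 5 score groups and within 5 width groups. The groups were cut by rank to hold about the same number of peaks, so score or width still varied inside each. The highest score group ran from 192.59 to 1685.19 and the widest width group from 1066 to 6705 bp. Within the score groups, the members were wider in 4 of 5, by 20, 18, 14 and 37 bp, while the difference was -8 bp in group 4. The intervals were apart only in the highest group, scores of 192.59 and above, where the median was 1137 bp (1121 to 1159) for 135 members and 1100 bp (1094 to 1104) for 2022 other peaks. Within the width groups, the members' median score was lower in the first 4, with differences between -4.72 and -0.20, and higher by 12.3 in the widest group, with overlapping intervals in each. In the first 4 width groups, the median scores of members were thus close to those elsewhere. Whether width accounts for the difference in score was not tested. The widest group held 28.7% of the members (153 of 533) and the narrowest 15.4% (82).

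**Figure D4:**
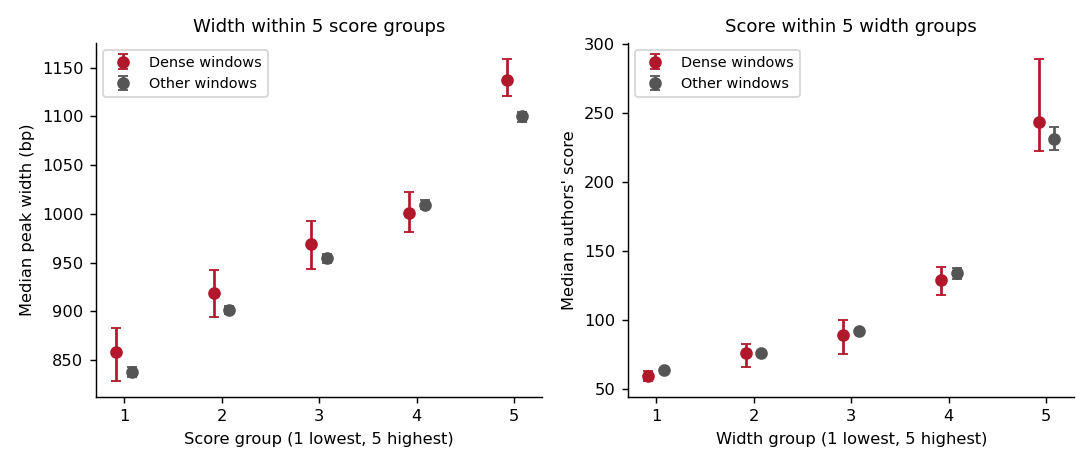
Left, median width in bp of peaks in dense windows (red) and other windows (grey) within 5 score groups of about equal peak number. Right, median score within 5 width groups cut in the same way. Both have 95% order-statistic intervals and axes that do not start at 0. Only the highest score group shows intervals that are apart, 1137 against 1100 bp.

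The peaks of dense windows lay nearer to each other, as the choice implies. The median distance to the nearest peak was 11.9 kb for members and 28.6 kb elsewhere, 2.41 times as far. A neighbour within 10 kb was found for 44.3% of the members (236 of 533) and 26.6% of the others, while 297 members had none at that distance and 9 members (1.69%) none within 100 kb. Runs of 3 or more peaks held 134 members (25.1%), against 6.74% of the other peaks. There were 38 such runs in the dense windows, 15.8% of the 241 on the autosomes: 23 of 3 peaks, 14 of 4 and the 1 of 9 on chromosome 13. Of the 14 autosomal runs with 5 or more peaks, 1 lay in a dense window. Runs of this length held 9 of the 533 members (1.69%) and 0.693% of the other peaks.

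The windows differed widely in this respect. The share of peaks with a neighbour within 10 kb was lowest at 14.3%, in the Eng window of chromosome 2 and in the window of chromosome 15 that begins at 38000001. It reached 73.1% in the window on chromosome 1 and 85.7% in that on chromosome 13. In 3 windows, 2 on chromosome 2 and 1 on chromosome 4, no run of 3 was found. Peaks occupied between 5 and 10 of the 10 parts of 100 kb in a window, with a median of 8. In 4 windows, those on chromosome 13, chromosome 6 from 125000001 to 126000000 and both on chromosome 11, a single part held 33.3% or more of the peaks.

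Members with a close neighbour had a higher median score than members without one, though the intervals overlapped. The median was 126.1 (100.6 to 138.4) for the 236 with a neighbour within 10 kb and 107.0 (94.9 to 118.6) for the other 297. The widths of these 2 sets were nearly the same, 969.5 and 970 bp. In the other windows the scores of the same 2 kinds of peak were 108.0 (104.0 to 112.2) and 99.1 (97.3 to 100.7).

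The neighbourhood of a dense window was not part of the choice. The windows directly beside the 24 held a median of 7.5 peaks (quartiles 5 and 10.25, 48 windows), against 3 (0 and 7) over all 2407 windows. Of these 48, 2 (4.17%) were empty, both beside the caveolin and Met window, against 25.4% of all windows. At distances of 2 and 3 Mb the median was 7, and at 4 and 5 Mb it was 5 and 6. Windows beside those of 15 to 19 peaks held a median of 7 at 1 Mb and 4 at 5 Mb. At 1 Mb, 7 of 145 such windows (4.83%) were empty, so a low share of empty neighbours was not particular to the 24. Some of the flanking windows were dense themselves or were counted for more than 1 dense window, since 11 of the 24 had another one within 5 Mb on the same chromosome.

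**Figure D5:**
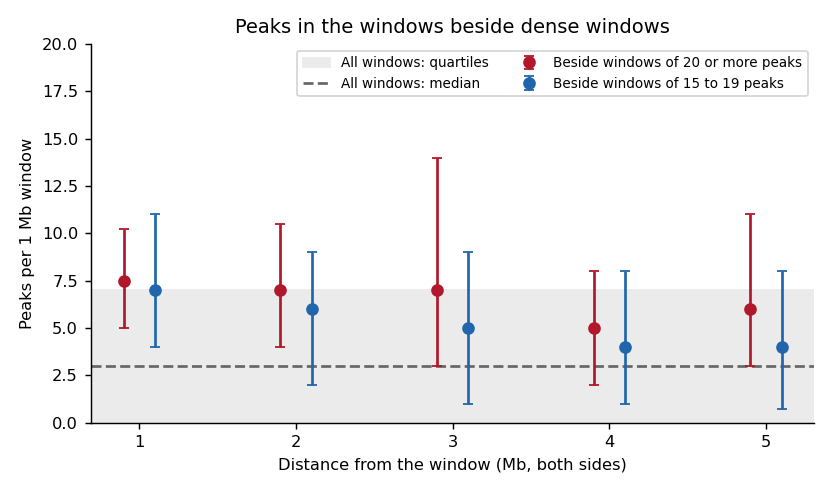
Peaks per 1 Mb window at distances of 1 to 5 Mb on both sides of the 24 windows with 20 or more peaks (red) and of the 73 windows with 15 to 19 (blue); points are medians and bars are quartiles. The dashed line and grey band are the median (3) and quartiles (0 and 7) of all windows, and the red medians lie between 5 and 7.5.

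Single windows departed from this. At least 10 peaks on each side were found for 2 dense windows, the Myh9 window of chromosome 15 (15 and 13) and the window of chromosome 6 that begins at 90000001 (15 and 20), and 12 had such a neighbour on at least 1 side. At the other end, 3 windows had fewer than 5 peaks on both sides: the caveolin and Met window on chromosome 6, with 0 and 0, the window on chromosome 15 from 38000001 to 39000000, with 3 and 2, and that on chromosome 14, with 4 and 2.

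Which peaks count as members rests on where the fixed windows begin. With the windows shifted by 500 kb, 21 windows held 20 or more peaks, with 449 peaks in all. Of these, 214 were shared with the 533, that is, 40.2% of the members and 47.7% of the peaks on the shifted grid. Of the 24 windows, 11 shared no peak with a dense window of the shifted grid, those over the collagen VI genes, the histone genes and Myh9 among them. The fullest shifted window, on chromosome 5 from 31500001 to 32500000, held 25 peaks. All 29 peaks of the window with Malat1 and Neat1 were in dense windows on both grids, as were 22 of 26 on chromosome 1 from 92000001 to 93000000 and 21 of 25 in the caveolin and Met window.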

How the data were processed

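The authors' deposited peak list of the 1 c-Fos ChIP library was used; the input library served in no comparison. It gives the start and end of each peak (other columns, in bp) and a score, the authors' value for each peak. Its scale is not stated, its lowest value is 50.01, and it is not a peak height. Per the submitters' processing notes, the tools were MACS 1.4.1 and CASAVA 1.8.2 and the build was mm9, with no role given; aligner, read filters, threshold and control: not given in the sources used here. Read depth is unknown.

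Starts are counted from 0 in the file and are printed 1-based, in mm9. Width is end minus start. Windows were floor(centre / 1 Mb), centre being the mean of start and end. Medians have 95% order-statistic intervals and shares have Wilson 95% intervals; both cover counting within this list only. No test was run, since there is 1 library. The window rule was also run on simulated positions with planted windows above the threshold. This checks the calculation only, since such windows are found by construction, and says nothing about these data. The members, lists and comparisons were chosen with earlier results of these data known. Named were, by rule, every dense window, the best peak of the 5 fullest, the 10 highest scores, the 5 widest members and runs of 5 or more; the choice of other peaks and of landmark genes was made after seeing the values. The planned comparison with mm9 annotation and sequence was not run. Python 3.11.15, numpy 2.4.6, pandas 2.3.3, scipy 1.17.1 and matplotlib 3.10.9 were used.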

Additional observations from a re-analysis of the deposited data

How the results depend on the processing

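Of 76 recomputed values, 49 stayed within 1.5 times a count or within the interval of the main value and 27 moved. A change of direction was possible only for the differences in median score and median width, and 0 of these changed direction. The number of dense windows, 24 with 20 or more peaks, was 97 with 15 or more, 5 with 25 or more, 118 for windows of 500 kb with 10 or more and 2 for windows of 2 Mb with 40 or more. It fell to 15 without the widest 5% of peaks and to 15 with peaks within 2 kb joined, since both steps remove peaks while the threshold is kept. Among peaks scoring at least 100 it was 1, the window on chromosome 8 from 124000001 to 125000000 with 21 peaks, with medians of 205.93 for score, 1118 bp for width and 4.96 kb for the distance to the nearest peak. That distance, 11.9 kb for the members, was 12.7 kb at 15 or more peaks, 7.40 kb at 25 or more and 12.9 kb with peaks joined. The median width was 1012 bp in windows of 2 Mb. The excess in median score over the other windows, 13.0 for the members, was positive in all 10 alternatives. The intervals given with it are those of the members' median minus the median elsewhere, which was taken as fixed. They reached below 0 in 7 of the 10. The excess was 7.58 (2.25 to 12.8) at 15 or more peaks and 7.71 (-3.14 to 19.3) on the shifted grid. In windows of 2 Mb the excess was 2.98 (-11.3 to 39.3), and without the widest 5% it was 8.18 (-2.31 to 23.9). It was 8.03 (-2.27 to 19.8) without the window of highest median score and 39.4 (-12.0 to 134) at a score of at least 100, where the filter acts on the compared value. At 25 or more peaks the interval began at -14.9. The excess in width lay between 19 and 90 bp. Its intervals, formed in the same way, stayed above 0 but came near it in some settings. The excess was 20 bp (1 to 34) without chromosome 6 and 23.5 bp (2 to 39) without the widest 5%. The 90 bp (22 to 176) came from the 21 peaks of 1 window at a score of at least 100, and score and width go together. Without chromosome 6, which has 4 dense windows, the excess in score was 14.3 (-0.44 to 23.5). Leaving out the window of highest median score was added after seeing the data. The 2 settings that concern annotation and motifs were not run. The list ends at a score of 50.01, so sites below it cannot be counted, and the depth is unknown. No paired analysis was possible because there is 1 ChIP library.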
